A study of Mus musculus with 22 samples.

Results

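The genes described here were listed for macrophages that take up dead cells and lipid and for foreign-body giant cells on an implant. They are *Dcstamp*, *Acp5*, *Atp6v0d2*, *Cd9*, *Spp1*, *Gpnmb*, *Trem2*, *Mertk*, *Cd68* and *Axl*. The 10 genes were chosen by name, with earlier results of these data known. Every probe set that the array annotation gives to 1 of them alone was taken. Of the 10, 9 had such a probe set, and 4 of these had more than 1, which gave 13 of 45037 probe sets and 9 of 18193 genes. No probe set is given to *Spp1* alone in the annotation used here, and *Spp1*, the gene for osteopontin, was not analysed here.

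Macrophages that meet a material too large to engulf can fuse into multinucleated giant cells, which resemble the osteoclasts of bone and share genes with them for cell fusion and for acid secretion. Macrophages in healing tissue also clear dying cells through receptors that bind exposed membrane lipid, directly or through bridging ligands, and digest the cargo in lysosomes. Granulation tissue is the new tissue of a wound, and a sponge implanted under the skin gives it a scaffold that stays in place as foreign material.

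Granulation tissue from subcutaneous viscose cellulose sponges was profiled on 22 Affymetrix arrays, which read RNA near its 3' end. Constitutive *Mmp13*-/- mice, which lack collagenase 3 in every cell, were set against WT mice bred from heterozygotes of the same backcrossed colony. All mice were of a C57BL/6 x 129 mixed background and were 5 to 8 weeks old. Each genotype had 3 arrays at 7 d, 4 at 14 d and 4 at 21 d after implantation, each from 1 mouse, and RNA came from the ends of the sponge. All 7 d arrays and 3 arrays of each genotype at 14 d belong to hybridization series 1. The 4th array of each genotype at 14 d and all 21 d arrays belong to series 2, which used less RNA and another labelling kit. Signals are log2 values from RMA, a method that puts arrays on a common scale, so 1 unit is a doubling. They were fitted with limma with the 6 groups and the series as terms, and a gene, read by its brightest probe set, was called where its p, adjusted over every probe set by Benjamini-Hochberg, was under 0.05. Any difference between 21 d and an earlier day thus rests on the series term, which only the 14 d arrays can estimate.

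*Mmp13* itself ranged from 7.62 to 8.63 on the *Mmp13*-/- arrays and from 10.26 to 12.02 on the WT arrays. The 9 measured macrophage markers had mean levels of 9.92 to 10.62 on the *Mmp13*-/- arrays and 10.07 to 10.61 on the WT arrays. Their group medians in *Mmp13*-/- tissue were 10.32 at 7 d, 10.32 at 14 d and 10.20 at 21 d. In WT tissue the medians were 10.37, 10.31 and 10.09. The WT arrays ranged from 10.29 to 10.61 at 7 d, 10.24 to 10.38 at 14 d and 10.07 to 10.22 at 21 d. Bone markers were near the bottom of the scale (group medians of their mean level 2.72 to 3.11). Of 4 genes listed as osteoclast markers, *Ctsk* was bright (11.69 to 12.81 over all arrays) and *Ocstamp* intermediate (4.30 to 6.34). *Oscar* (3.14 to 4.39) and *Calcr*, the calcitonin receptor (1.85 to 2.66), were dim. Which cells gave the *Ctsk* signal was not tested. Keratinocyte markers stood high on WT 14 d replicates 1 and 3, with mean levels of 5.96 and 6.55, against 3.79 to 4.94 on all other arrays. Skeletal muscle markers varied widely within every group (mean levels of 5.40 to 10.22 over all arrays). Adipocyte markers had medians of 10.13 at 7 d, 7.61 at 14 d and 7.91 at 21 d in *Mmp13*-/- tissue, and 9.94, 9.16 and 7.94 in WT tissue. Fibroblast markers at 14 d had mean levels of 11.67 to 11.87 on the *Mmp13*-/- arrays and 11.97 to 12.15 on the WT arrays. At 7 d and 21 d their ranges in the genotypes overlapped. The part of fibroblasts in the members' genotype differences was not tested.

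**Figure D1:**
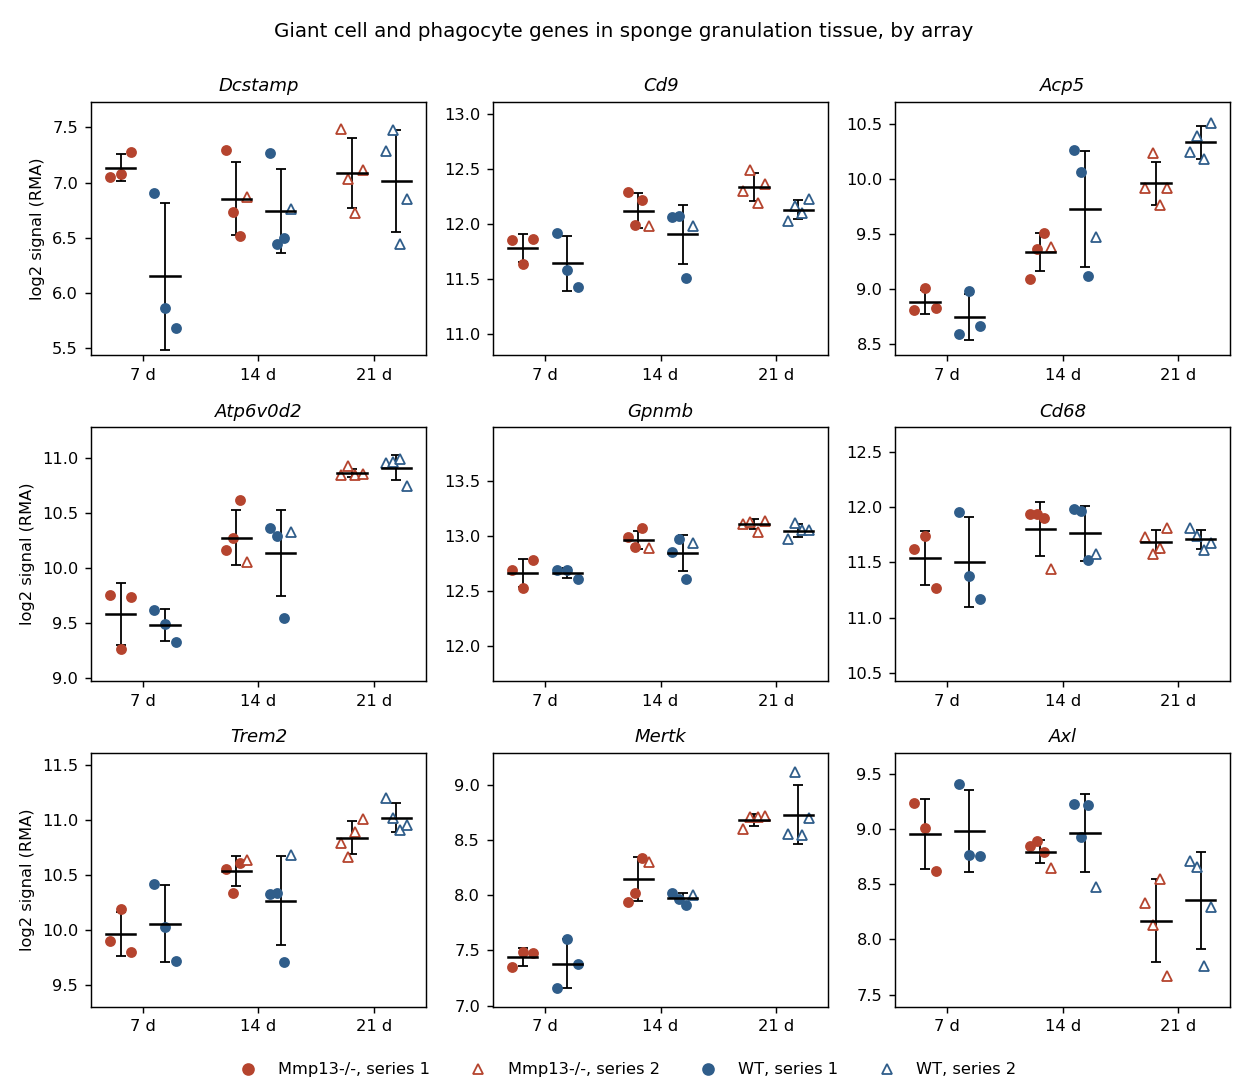
Log2 RMA signal (vertical axis, a span of the same height in every panel) of 9 giant cell and phagocyte genes against the day after implantation (horizontal axis). Each point is 1 array, filled circles are series 1 and open triangles series 2, the bar is the group mean and the whisker 1 SD, with 3 arrays per group at 7 d and 4 later. *Mertk*, *Acp5* and *Atp6v0d2* sit higher at 21 d than at 7 d in both genotypes, and *Dcstamp* is spread widely among the WT arrays of 7 d.

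At 21 d, 3 members were higher than at 7 d in both genotypes: *Mertk*, a receptor for dying cells, *Acp5*, the tartrate-resistant acid phosphatase of osteoclasts, and *Atp6v0d2*, a proton pump subunit needed for fusion of mouse osteoclasts. In *Mmp13*-/- tissue 3 of 9 members were called, all higher, where 2.33% of all genes were called in either direction and 0.813% higher. In WT tissue 3 of 9 were called, all higher, where 6.32% of all genes were called and 3.07% higher. The median log2 difference of the members was 0.53 in *Mmp13*-/- and 0.62 in WT tissue, beside 0.01 and 0.02 for all genes. Every 21 d array lay above every 7 d array for 6 members in each genotype, and 19.5% of all genes did so in each. Adipocyte and muscle markers had lower median levels at 21 d than at 7 d (for muscle 7.22 and 9.08 in *Mmp13*-/-, 7.71 and 8.93 in WT tissue), with 0 of their 6 genes called. Neutrophil markers had group medians of 5.89 at 21 d and 6.29 at 7 d in *Mmp13*-/- and of 5.82 and 6.31 in WT tissue, with 0 of 9 called. Endothelial markers had a median fitted difference of 0.23 in *Mmp13*-/- and 1.28 in WT tissue, with 0 of 5 called and 4 at an unadjusted p under 0.05 in WT. Their measured group medians were 6.19 at 21 d and 6.73 at 7 d in *Mmp13*-/- and 6.59 and 6.37 in WT tissue. Of 6 keratinocyte markers 5 had a positive fitted difference (medians of all 6 0.72 and 0.98), none of them called. The other, *Dmkn*, was lower in each genotype (-3.02, adjusted p = 0.0146, and -2.89, adjusted p = 0.00851). Measured medians of the keratinocyte markers were lower at 21 d than at 7 d (4.06 and 4.46 in *Mmp13*-/-, 4.34 and 4.43 in WT tissue). The fitted differences of both lists thus include a large adjustment for series. The part of these cells in the members' results was not tested. In whole tissue, fewer cells of a type and less RNA per cell cannot be told apart.

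**Figure D2:**
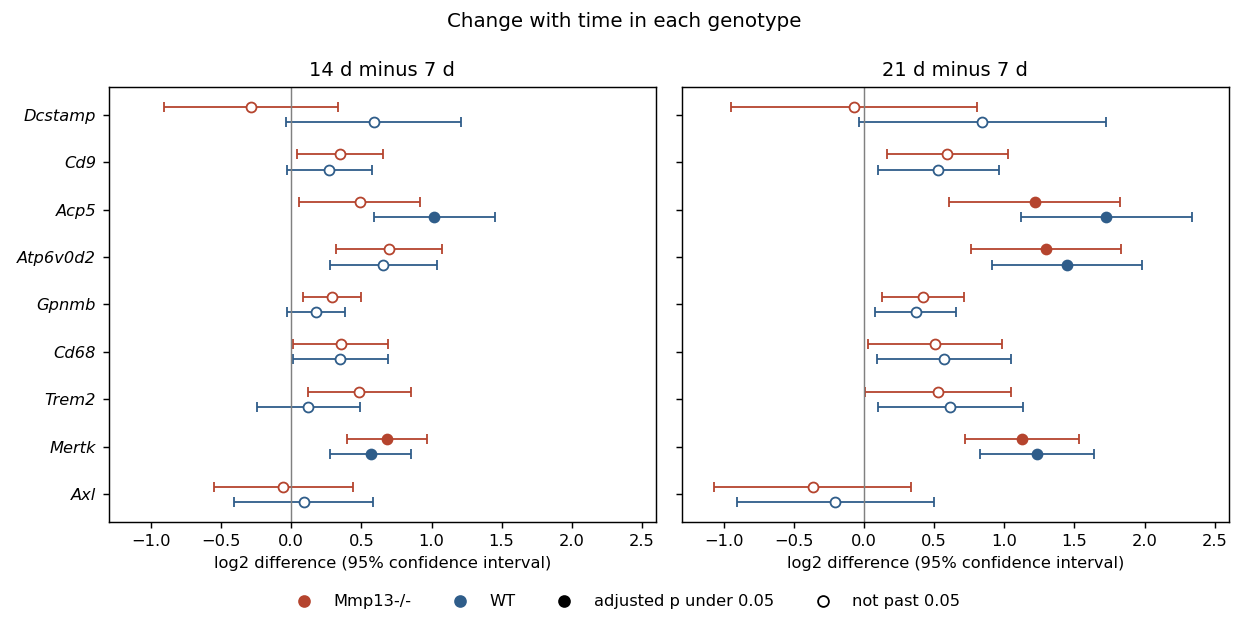
Log2 difference from 7 d (horizontal axis) at 14 d and at 21 d for 9 members (vertical axis), with 95% confidence intervals from limma, *Mmp13*-/- above WT. Filled points passed an adjusted p of 0.05. *Mertk* was called in all 4 comparisons shown, and the intervals of *Axl* include 0 in each.

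*Mertk* encodes a receptor tyrosine kinase of macrophages that takes up apoptotic cells and later releases macrophages from inflammatory programs. At 7 d the *Mmp13*-/- arrays read 7.35, 7.49 and 7.48 and the WT arrays 7.16, 7.60 and 7.38. At 14 d they read 7.94, 8.02, 8.34 and 8.30 in *Mmp13*-/- and 8.02, 7.97, 7.91 and 8.00 in WT tissue. At 21 d they read 8.60, 8.71, 8.71 and 8.72 in *Mmp13*-/- and 8.56, 9.12, 8.55 and 8.70 in WT tissue. In each genotype the 3 days did not overlap, and each day was higher than the one before it. *Mertk* rose by 1.13 (standard error 0.19, adjusted p = 0.00548) between 7 d and 21 d in *Mmp13*-/- tissue. The rise was 1.24 (standard error 0.19, adjusted p = 0.00098) in WT tissue. Without the series term these were 1.25 and 1.35. Leaving out *Mmp13*-/- 14 d replicate 4, 1 of the 2 arrays of series 2 at that day, ended the *Mmp13*-/- call (adjusted p = 0.0741).

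At 14 d *Mertk* was the member called in both genotypes. The log2 difference from 7 d was 0.68 (standard error 0.14, adjusted p = 0.0228) in *Mmp13*-/- and 0.57 (standard error 0.14, adjusted p = 0.0379) in WT tissue. It was the single call among 9 members in *Mmp13*-/- tissue (0.945% of all genes were called, 0.462% higher), and 1 of 2 calls in WT tissue (2.54% of all genes, 1.63% higher). All 14 d arrays lay above all 7 d arrays for 6 members in *Mmp13*-/- and 2 in WT tissue, as they did for 7.86% and 7.55% of all genes. Within series 1 the *Mertk* differences were 0.66 and 0.59. Leaving out single arrays kept the call in 17 of 22 refits in *Mmp13*-/- and in 15 of 22 in WT tissue, with adjusted p up to 0.149 and 0.161. The lost calls came without any 1 of the 7 d arrays or 14 d replicates 2 or 3 of *Mmp13*-/-, and in WT without 7 d replicates 1 or 3, any WT 14 d array or *Mmp13*-/- 14 d replicate 4. Between 14 d and 21 d the differences were 0.45 (adjusted p = 0.223) in *Mmp13*-/- and 0.67 (adjusted p = 0.0690) in WT tissue. Neither passed, and 0 of 9 members did in either genotype, where 0.0495% and 0.561% of all genes were called and 3 and 4 members had an unadjusted p under 0.05 (14.5% and 15.6% of all genes). All 21 d arrays lay above all 14 d arrays for 4 members in *Mmp13*-/- and 3 in WT tissue, beside 7.94% and 8.37% of all genes, and below them for 1 member in *Mmp13*-/- tissue, *Axl*, beside 5.13%.

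The promoter of *Mertk* is shown because this member was called most often (RefSeq sequence, GRCm38.p6, chr2:128698665-128698964, plus strand, 250 bases before to 50 after the start). Promoters were searched on both strands for TCACGTG and TCATGTG, the E-box and M-box bound by the MiT/TFE factors of lysosome and osteoclast genes, for TGANTCA of AP-1 and for GAGGAA, the core site of the myeloid factor PU.1. Any match is written in capitals, and this promoter had none.
Mertk: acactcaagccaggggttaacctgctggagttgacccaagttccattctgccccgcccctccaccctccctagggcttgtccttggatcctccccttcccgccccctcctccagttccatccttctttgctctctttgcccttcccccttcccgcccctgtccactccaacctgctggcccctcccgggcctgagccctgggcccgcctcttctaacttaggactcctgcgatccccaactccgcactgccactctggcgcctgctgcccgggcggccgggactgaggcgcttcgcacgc

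*Acp5* had log2 signals of 8.81, 9.01 and 8.83 in *Mmp13*-/- and 8.59, 8.98 and 8.66 in WT tissue at 7 d. At 14 d it was at 9.09, 9.36, 9.51 and 9.38 in *Mmp13*-/- and at 10.26, 10.06, 9.12 and 9.47 in WT tissue. At 21 d it was at 9.92, 10.23, 9.76 and 9.92 in *Mmp13*-/- and at 10.24, 10.39, 10.18 and 10.51 in WT tissue. All 14 d arrays were above all 7 d arrays of their genotype, and the WT arrays of 14 d were split, with replicates 3 and 4 at the level of the *Mmp13*-/- arrays. *Acp5* was called at 14 d in WT tissue, by 1.02 (standard error 0.21, adjusted p = 0.0114), a call lost without WT 7 d replicates 1 or 3 or WT 14 d replicates 1 or 2 (adjusted p 0.0526 to 0.0560). In *Mmp13*-/- tissue the difference was 0.49 (standard error 0.21, adjusted p = 0.600). The change of the genotype difference between those days was -0.53 (standard error 0.28, adjusted p = 1), so the rises were not shown to differ. Within series 1 they were 0.44 in *Mmp13*-/- and 1.07 in WT tissue.

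Between 7 d and 21 d *Acp5* rose by 1.22 (standard error 0.29, adjusted p = 0.0376) in *Mmp13*-/- tissue. It rose by 1.73 (standard error 0.29, adjusted p = 0.00163) in WT tissue. The WT call held in each of 31 other settings, with adjusted p up to 0.0255. The *Mmp13*-/- call held in 19 of 31, and in 12 of the 22 that left out 1 array (adjusted p up to 0.203, without WT 14 d replicate 4).

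Of the promoters that RefSeq gives for 7 members, 1 of 9 (*Acp5* has 3) held the M-box, an *Acp5* promoter, which is shown with the match in capitals (GRCm38.p6, chr9:22130549-22130848, minus strand, the match starting at -90 from the start site and running on the opposite strand). The M-box is in 3.77% of 32851 promoters of this length. The E-box, also in 3.77%, was in no member promoter.
Acp5: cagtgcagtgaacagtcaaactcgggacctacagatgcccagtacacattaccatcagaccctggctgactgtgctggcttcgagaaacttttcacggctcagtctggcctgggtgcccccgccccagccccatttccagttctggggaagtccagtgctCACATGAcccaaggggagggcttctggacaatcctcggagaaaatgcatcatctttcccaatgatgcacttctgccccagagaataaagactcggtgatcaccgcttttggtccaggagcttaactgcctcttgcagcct

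*Atp6v0d2* encodes the d2 subunit of the membrane part of the vacuolar proton pump. Its brightest probe set read 9.75, 9.26 and 9.74 in *Mmp13*-/- and 9.62, 9.49 and 9.33 in WT tissue at 7 d. At 14 d it read 10.16, 10.27, 10.62 and 10.05 in *Mmp13*-/- and 10.36, 10.29, 9.55 and 10.33 in WT tissue. At 21 d it read 10.84, 10.92, 10.84 and 10.85 in *Mmp13*-/- and 10.95, 10.96, 10.99 and 10.74 in WT tissue. The 21 d arrays of both genotypes lay within a narrow range above all others, and WT 14 d replicate 3 lay among the 7 d arrays. Between 7 d and 21 d *Atp6v0d2* rose by 1.30 (standard error 0.26, adjusted p = 0.0127) in *Mmp13*-/- tissue. It rose by 1.45 (standard error 0.26, adjusted p = 0.00238) in WT tissue. Both calls were lost without *Mmp13*-/- 14 d replicate 4 (1.02, adjusted p = 0.210, and 1.17, adjusted p = 0.0805).

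The other probe set of *Atp6v0d2* gave 1.31 (adjusted p = 0.0145) in *Mmp13*-/- and 1.21 (adjusted p = 0.0112) in WT tissue. Its series term was the largest of any member probe set, at -0.66 (standard error 0.19). Its group means were 10.18 at 21 d and 9.53 at 7 d in *Mmp13*-/- tissue, and 10.03 at 21 d and 9.49 at 7 d in WT tissue, smaller steps than the fitted ones. At 14 d the brightest probe set differed from 7 d by 0.70 (adjusted p = 0.110) in *Mmp13*-/- and 0.66 (adjusted p = 0.0775) in WT tissue. Without WT 14 d replicate 3, the array with the highest keratinocyte markers, these were called (0.73, adjusted p = 0.0151, and 0.90, adjusted p = 0.00537). With all arrays kept, the WT difference was also called with dim probe sets left out (adjusted p = 0.0437) and with a trended robust prior (adjusted p = 0.0470). The part of skin cells was not tested.

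The other genes of digestion in the lysosome were bright at every day. *Gpnmb*, a transmembrane glycoprotein of lipid-laden macrophages and osteoclasts, was near the top of the scale, at 12.53 to 13.14 in *Mmp13*-/- and 12.61 to 13.12 in WT tissue over all days. Its difference between 7 d and 21 d was 0.42 (standard error 0.14, adjusted p = 0.140) in *Mmp13*-/- and 0.37 (standard error 0.14, adjusted p = 0.158) in WT tissue. The series term of this probe set was 0.02 (standard error 0.10), and the fit without that term called *Gpnmb* in both genotypes. Every 21 d array was above every 7 d array of its genotype, as for 19.5% of all genes in each. The dimmer probe set gave 0.28 (adjusted p = 0.599) and 0.49 (adjusted p = 0.247). *Cd68*, a heavily glycosylated protein of macrophage lysosomes, had means of 11.54 at 7 d, 11.81 at 14 d and 11.69 at 21 d in *Mmp13*-/- and 11.50, 11.76 and 11.71 in WT tissue. The arrays of the 3 days overlapped. Its fitted difference between 7 d and 21 d was 0.51 (adjusted p = 0.302) in *Mmp13*-/- and 0.57 (adjusted p = 0.184) in WT tissue, and without the series term, itself -0.37 (standard error 0.17), it was 0.14 and 0.21.

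*Trem2*, a receptor that binds lipids and dying cells and signals through the adaptor *Tyrobp*, had log2 signals of 9.90, 10.19 and 9.80 in *Mmp13*-/- and 10.42, 10.03 and 9.72 in WT tissue at 7 d. At 14 d it read 10.55, 10.34, 10.61 and 10.64 in *Mmp13*-/- and 10.33, 10.34, 9.71 and 10.68 in WT tissue. At 21 d it read 10.79, 10.66, 10.89 and 11.01 in *Mmp13*-/- and 11.20, 11.02, 10.91 and 10.95 in WT tissue. The 21 d arrays were above all earlier arrays of their genotype. The fitted difference between 7 d and 21 d was 0.53 (standard error 0.25, adjusted p = 0.326) in *Mmp13*-/- and 0.62 (standard error 0.25, adjusted p = 0.185) in WT tissue. Without the series term, 0.35 (standard error 0.18) for this probe set, it was 0.87 (adjusted p = 0.00306) in *Mmp13*-/- and 0.96 (adjusted p = 0.000807) in WT tissue, and so the fit without that term called it. The other *Trem2* probe set was dim (4.04 to 4.82 over all arrays), with differences of 0.16 and 0.01.

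*Tyrobp* had the level pattern closest to *Trem2* of all genes (Pearson r = 0.97 over 22 arrays, which share days and series). Its difference between 7 d and 21 d was 0.47 (adjusted p = 0.174) in *Mmp13*-/- and 0.56 (adjusted p = 0.0627) in WT tissue. *Axl*, a receptor of the same family as *Mertk*, was the only member whose fitted difference between 7 d and 21 d was negative in both genotypes. At 7 d it read 9.24, 9.01 and 8.62 in *Mmp13*-/- and 9.41, 8.77 and 8.76 in WT tissue, at 14 d 8.65 to 8.89 and 8.48 to 9.23, and at 21 d 8.33, 8.13, 8.55 and 7.67 in *Mmp13*-/- and 8.71, 8.66, 7.76 and 8.29 in WT tissue. All 21 d arrays lay below all 7 d arrays of their genotype, as for 11.7% and 12.2% of all genes. The fitted difference was -0.37 (standard error 0.34, adjusted p = 0.662) in *Mmp13*-/- and -0.20 (standard error 0.34, adjusted p = 0.814) in WT tissue, with a series term of -0.42 (standard error 0.25). Without that term it was -0.79 (adjusted p = 0.0317) in *Mmp13*-/- and -0.62 in WT tissue. The other *Axl* probe set lay at 1.97 to 2.89, near the bottom of the scale.

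The AP-1 motif, in 7.81% of all promoters, was in 3 of the 9 member promoters, those of *Gpnmb*, *Trem2* and *Cd68*. The PU.1 core, in 28.3% of all promoters, was also in 3 of the 9, those of *Axl*, *Cd68* and *Trem2*. No match overlapped another. The 30 bases around each AP-1 match are shown to let the sites be compared, with the match in capitals (GRCm38.p6, chr6:49036515-49036544 on the plus strand for *Gpnmb*, chr17:48346381-48346410 on the plus strand for *Trem2*, chr11:69666301-69666330 and chr11:69666176-69666205 on the minus strand for *Cd68*). The match begins at 8 from the start site in *Gpnmb*, at -9 in *Trem2* and at -149 and -24 in *Cd68*. *Dcstamp* and *Atp6v0d2* were not in the promoter table.
Gpnmb: ccaggggcaagTGACTCAtgagcacgagtt
Trem2: ttctccctcctTGAATCAcagcgcctaccc
Cd68, distal: taagttccgtgTGAGTCAgctgcctcattc
Cd68, proximal: gctgaggtgtcTGAGTCAggtttggggtgg

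Of the fusion genes, *Dcstamp* encodes the transmembrane protein without which mouse osteoclasts and giant cells do not fuse. At 7 d it read 7.05, 7.08 and 7.28 in *Mmp13*-/- and 6.91, 5.86 and 5.68 in WT tissue. At 14 d it read 7.30, 6.73, 6.52 and 6.87 in *Mmp13*-/- and 7.27, 6.44, 6.50 and 6.76 in WT tissue. At 21 d it read 7.49, 7.03, 6.72 and 7.11 in *Mmp13*-/- and 7.29, 7.48, 6.44 and 6.85 in WT tissue. The 7 d *Mmp13*-/- arrays were all above the WT arrays, of which 1 lay close to them, and the later groups overlapped. Among the 7 d arrays the muscle markers were at 9.08, 6.03 and 9.99 in *Mmp13*-/- and at 5.40, 8.93 and 10.22 in WT tissue, lowest on the WT array with the most *Dcstamp*, and their part in it was not tested. The difference between 7 d and 21 d was -0.07 (standard error 0.42, adjusted p = 0.958) in *Mmp13*-/- and 0.84 (standard error 0.42, adjusted p = 0.305) in WT tissue. Without the series term *Dcstamp* was called in WT tissue and not in *Mmp13*-/- tissue.

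*Cd9*, a tetraspanin of the membrane where macrophages fuse, had means of 11.78 at 7 d, 12.12 at 14 d and 12.34 at 21 d in *Mmp13*-/- tissue. In WT tissue the means were 11.64, 11.91 and 12.13. Every 21 d array was above every 7 d array in both genotypes. The difference between 7 d and 21 d was 0.60 (standard error 0.21, adjusted p = 0.159) in *Mmp13*-/- and 0.53 (standard error 0.21, adjusted p = 0.168) in WT tissue. The series term of *Cd9* was -0.04 (standard error 0.15), and the fit without that term called this gene in both genotypes.

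The genotypes were compared at each day to ask whether loss of *Mmp13* moved these genes. No member was called at 7 d, 14 d or 21 d, where 0.0110%, 0.0220% and 0.0440% of all genes were, nor in the mean over the days (0.0879% of all genes) or in the change of the genotype difference between days (0% of all genes at both steps). At an unadjusted p under 0.05 there were 1 member at 7 d, 1 at 14 d, 0 at 21 d and 2 in the mean, beside 2.99%, 4.76%, 12.1% and 7.61% of all genes. For the change of the difference there were 1 member between 7 d and 14 d and 0 between 14 d and 21 d, beside 3.06% and 6.43%. Of 27 differences, 25 had a 95% interval that included 0.

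**Figure D3:**
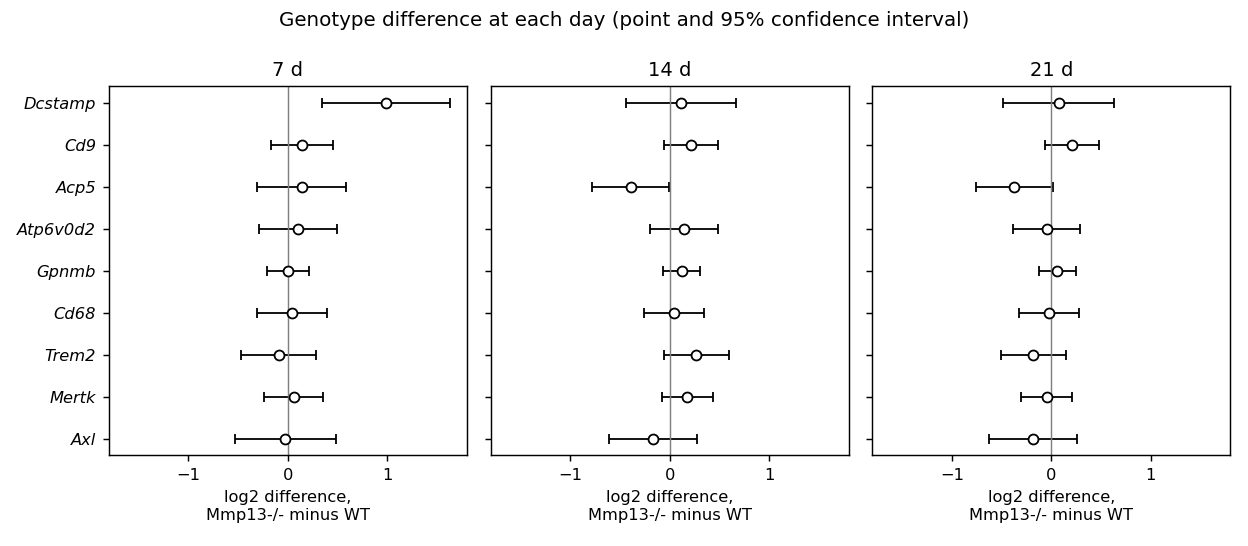
Log2 difference *Mmp13*-/- minus WT (horizontal axis) of 9 members (vertical axis) by day, as points with 95% confidence intervals from limma. Apart from *Dcstamp* at 7 d (0.99), all points lie within 0.39 of 0, and none passed the adjusted test.

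*Dcstamp* at 7 d was the widest of these, at 0.99 on the log2 scale (unadjusted p = 0.00446, standard error 0.31, adjusted p = 1). It was also the only member whose groups did not overlap at that day, where 8.77% of all genes did not, and 0 members were apart at 14 d or 21 d, beside 4.01% and 3.36%. For *Dcstamp* at 7 d an exact permutation test gave p = 0.1 (two-sided), the smallest that 3 arrays against 3 allow. Without WT 7 d replicate 1 the difference was 1.37 and without WT 7 d replicate 3 it was 0.75. This probe set is among those that the study displayed for 7 d on the same arrays, so the value is not an independent observation. At 14 d the difference was 0.11 and at 21 d 0.07, with intervals of -0.44 to 0.67 and -0.48 to 0.63. The change of the genotype difference between 7 d and 14 d was -0.87 (standard error 0.41, unadjusted p = 0.0441, adjusted p = 1).

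*Acp5* and *Axl* had lower means in *Mmp13*-/- than in WT tissue at both later days, and neither passed the adjusted test. For *Axl* the differences were -0.17 at 14 d and -0.18 at 21 d. For *Acp5* the difference was -0.39 at 14 d (95% interval -0.78 to -0.01, adjusted p = 0.999) and -0.37 at 21 d (-0.76 to 0.01, adjusted p = 0.437). Exact permutation tests of *Acp5* gave p = 0.257 at 14 d and 0.0571 at 21 d (two-sided, where 4 arrays against 4 allow 0.0286). At 21 d the 4 WT arrays read 10.18 to 10.51 and 1 *Mmp13*-/- array, at 10.23, reached them. At 14 d the difference ranged from -0.62 without WT replicate 3 to -0.22 without WT replicate 1, the arrays with the highest keratinocyte markers, and was -0.48 without both. It was -0.49 in series 1 and -0.09 between the single arrays of series 2. For *Mertk* the 95% intervals were -0.24 to 0.36 at 7 d, -0.08 to 0.43 at 14 d and -0.30 to 0.21 at 21 d. For *Atp6v0d2* they were -0.29 to 0.49, -0.20 to 0.48 and -0.39 to 0.29, and for *Trem2* -0.47 to 0.28, -0.06 to 0.60 and -0.51 to 0.14.

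Genes that work with the members were read from 5 lists. Among 18 genes of apoptotic cell uptake, 4 were called higher and 0 lower between 7 d and 21 d in *Mmp13*-/- tissue (median 0.58), and 6 higher and 0 lower in WT tissue (median 0.60). Of all genes, 0.813% were called higher between those days in *Mmp13*-/- and 3.07% in WT tissue. *Gas6*, the bridging ligand of *Mertk* and *Axl*, rose by 1.69 (adjusted p = 0.00408) in *Mmp13*-/- tissue, with 9.40 to 10.01 at 21 d and 8.11 to 8.57 at 7 d. It rose by 2.26 (adjusted p = 0.000132) in WT tissue, with 9.71 to 10.47 at 21 d and 7.98 to 8.41 at 7 d. *Pros1*, another ligand of *Mertk*, had differences of 0.10 (adjusted p = 0.783) and 0.37 (adjusted p = 0.139).

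*Mfge8*, a bridge to integrins, rose by 1.06 (adjusted p = 0.0351) in *Mmp13*-/- and by 1.89 (adjusted p = 0.000254) in WT tissue. *Itgb5*, an integrin chain that binds it, rose by 0.78 (adjusted p = 0.0426) in *Mmp13*-/- and by 1.06 (adjusted p = 0.00279) in WT tissue. *Itgav*, its partner chain, had differences of -0.11 and -0.08. *Thbs1*, thrombospondin 1, was called in *Mmp13*-/- tissue (1.21, adjusted p = 0.0306), while its means were 9.51 at 21 d and 9.35 at 7 d, so most of the fitted difference was the adjustment for series. At 14 d the list had 2 calls in *Mmp13*-/- tissue, *Gas6* (1.18, adjusted p = 0.00551) and the scavenger receptor *Stab1* (0.92, adjusted p = 0.0278). It had 3 in WT tissue, *Mfge8* (1.36, adjusted p = 0.000299), *Gas6* (1.45, adjusted p = 0.000446) and *Itgb5* (0.65, adjusted p = 0.0136). At that day 0.462% of all genes were called higher in *Mmp13*-/- and 1.63% in WT tissue. Between 14 d and 21 d *Stab2*, a relative of *Stab1*, was called in WT tissue (1.02, adjusted p = 0.0261), where 0.561% of all genes were called.

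**Figure D4:**
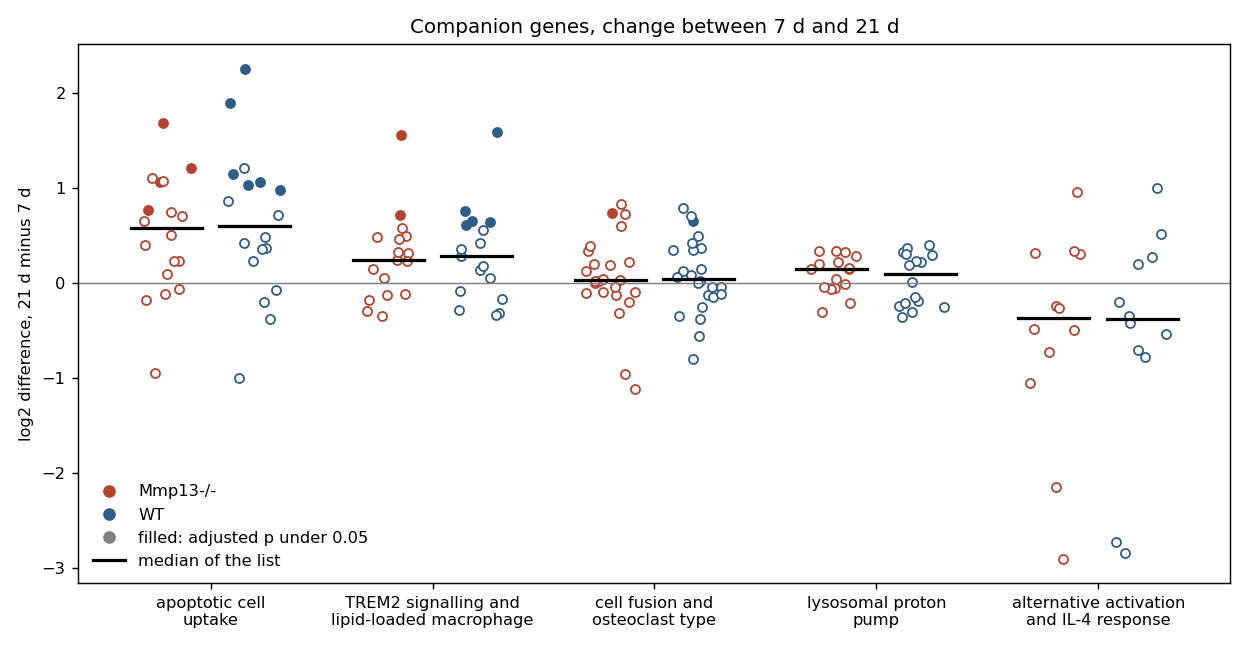
Log2 difference between 21 d and 7 d (vertical axis) for the genes of 5 companion lists (horizontal axis), 1 point per gene, *Mmp13*-/- left of WT, filled where the adjusted p was under 0.05, with the black bar at the median of the list. The apoptotic cell uptake list has the highest median (0.58 in *Mmp13*-/-, 0.60 in WT) and the alternative activation list the lowest (-0.37 and -0.38).

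Among 17 measured genes of TREM2 signalling and lipid-loaded macrophages, 2 were called higher in *Mmp13*-/- and 5 in WT tissue between 7 d and 21 d, and 0 lower (medians 0.24 and 0.28). The shares of all genes called higher were 0.813% and 3.07%. *Apoe*, the lipid carrier apolipoprotein E, rose by 1.56 (adjusted p = 0.00565) in *Mmp13*-/- and by 1.59 (adjusted p = 0.00164) in WT tissue. At 14 d it had risen by 1.29 (adjusted p = 0.00192) and 0.94 (adjusted p = 0.0113). The *Apoe* means were 11.22 at 7 d, 12.39 at 14 d and 12.32 at 21 d in *Mmp13*-/- tissue. In WT tissue they were 11.46, 12.29 and 12.60, so part of each fitted 21 d difference was the adjustment for series. *Cd36*, a fatty acid and scavenger receptor, rose by 0.71 (adjusted p = 0.0357) and 0.76 (adjusted p = 0.0121). Its means were 12.14 at 21 d and 11.68 at 7 d in *Mmp13*-/- and 12.18 and 11.68 in WT tissue, smaller steps than the fitted ones. *Ctsd*, the lysosomal protease cathepsin D, rose by 0.65 (adjusted p = 0.0108) in WT tissue and had a difference of 0.50 (adjusted p = 0.0835) in *Mmp13*-/- tissue.

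Of 24 genes of cell fusion and osteoclast type, *P2rx7*, an ATP-gated channel linked to giant cell formation, was the single call between 7 d and 21 d. It rose by 0.74 (adjusted p = 0.0321) in *Mmp13*-/- and 0.66 (adjusted p = 0.0317) in WT tissue. This 1 call of 24 stood beside 2.33% of all genes called in *Mmp13*-/- and 6.32% in WT tissue. The medians of the list were 0.03 and 0.04. The osteopontin receptors *Cd44* (-0.11 in *Mmp13*-/-, -0.56 in WT) and *Itgb3* (0.03 and 0.02) were not called. The *Itgb3* means were 7.91 at 21 d and 7.15 at 7 d in *Mmp13*-/-, and 7.87 at 21 d and 7.11 at 7 d in WT tissue, every 21 d array above every 7 d array, so its fitted differences near 0 come from the adjustment for series. *Csf1r*, the receptor for macrophage growth factor, had differences of 0.23 (adjusted p = 0.493) and 0.35 (adjusted p = 0.198). Of 16 measured genes of the proton pump and acidification list, 0 were called in any comparison of days (medians 0.15 and 0.10 between 7 d and 21 d), a list that leaves out *Atp6v0d2*. *Atp6v0d1*, the widespread form of the same subunit, had differences of 0.33 (adjusted p = 0.341) and 0.32 (adjusted p = 0.297). Of 12 genes of alternative activation, 0 were called. *Arg1*, arginase 1, had differences of -2.15 (adjusted p = 0.294) in *Mmp13*-/- and -2.84 (adjusted p = 0.103) in WT tissue, and *Chil3*, a chitinase-like protein, of -2.90 (adjusted p = 0.140) in *Mmp13*-/- and -2.73 (adjusted p = 0.124) in WT tissue. Macrophage markers had 0 calls in *Mmp13*-/- and 1, lower, in WT tissue, with medians of 0.11 and -0.06.

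Between genotypes, 0 genes of the 5 companion lists were called at any day. Of all genes, 0.0110% were called at 7 d, 0.0220% at 14 d and 0.0440% at 21 d, so few calls were to be found in lists of this size. The smallest adjusted p was 0.170, for *Stab2* at 21 d (-0.48). This gene was dim at that day, at 4.19 to 4.71 in *Mmp13*-/- and 4.54 to 5.33 in WT tissue. *Mfge8* differed by 0.89 at 7 d (adjusted p = 0.307), and *Gas6* by -0.47 at 21 d (adjusted p = 0.284).

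The members fell into patterns across the 22 arrays, which share days and series, so the correlations are descriptions. *Atp6v0d2* and *Gpnmb* ran closest together (r = 0.95), then *Cd9* and *Gpnmb* (0.92) and *Atp6v0d2* and *Mertk* (0.91), while *Axl* ran against *Gpnmb* (-0.68) and *Mertk* (-0.66). The genes nearest to *Mertk* were *Man2b1*, *Npc1* and *Arsb* (r = 0.95 to 0.96). They were *Syngr1*, *Gusb* and *Glipr1* for *Atp6v0d2* (0.95 to 0.96) and *Adcy3*, *Txndc16* and *Pld3* for *Acp5* (0.90 to 0.91). *Gpnmb* was followed by *Atp6v0d2*, *Mfsd12* and *Gpr137b* (0.93 to 0.95) and *Cd9* by *Gpnmb*, *Niban2* and *Edem2* (0.88 to 0.92). *Trem2* was followed by *Tyrobp*, *Antkmt* and *Tbxas1* (0.96 to 0.97), and *Axl* by *Lgals3bp*, *H2-D1* and *B2m* (0.90 to 0.92). The closest matches were looser for *Cd68* (*Trappc8*, *Ppt1* and *Pcna*, 0.83 to 0.84) and *Dcstamp* (*Mnat1*, *Txn1* and *Gid4*, 0.73 to 0.77).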

How the data were processed

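The authors normalized the arrays with RMA, and the deposited values are log2 signals per probe set in 1 table of 45101 probe sets. The sources used here give neither the RMA version nor the number of runs. All 22 columns were used, and the median log2 signal per array was 4.16 to 4.27. With arrays, their number (3 or 4 per group) limits the precision.

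After 64 control probe sets were left out, 45037 were fitted with limma 3.58.1 in R 4.3.3, with 6 group means and the hybridization series as terms (15 residual degrees of freedom) and no filter on signal. P-values were adjusted by Benjamini-Hochberg over all probe sets, and calls made at 0.05. Genes come from the platform's annotation, and a gene is its brightest probe set given to it alone. Exact permutation tests compared genotypes for single members. The fit was tested on simulated data. Alternatives were other terms, scalings, filters, priors, single series and arrays left out.

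All members are named, and of the 5 companion lists up to 3 genes with the smallest adjusted p in a comparison, 7 partners, ligands and receptors whatever their values, and the 3 genes most like each member. *Atp6v0d1* and *Dmkn* were named after their values were seen. The members and lists were chosen with earlier results of these data known. Of 161 genes on all lists, 151 were measured. Replicate numbers were not taken to pair the samples.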

Additional observations from a re-analysis of the deposited data

Results flagged for a closer look

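In groups of 4 arrays, a sample was marked where its gap to the nearest of the others took up most of the range of the group (Dixon's 95% critical value). Of 52 such groups of member probe sets, 7 had 1, and chance alone marks about 5%. On WT 14 d replicate 3, which had the highest keratinocyte markers, *Atp6v0d2* was at a log2 signal of 9.55 (other arrays of the group 10.29 to 10.36) and *Cd9* at 11.51 (others 11.98 to 12.07). On *Mmp13*-/- 14 d replicate 4, the series 2 array of its group, *Cd68* was at 11.44 (others 11.90 to 11.94) and the dim probe set of *Axl* at 2.63 (others 2.21 to 2.25). At 21 d, *Atp6v0d2* was at 10.92 on *Mmp13*-/- replicate 2 (others 10.84 to 10.85) and at 10.74 on WT replicate 4 (others 10.95 to 10.99), and *Mertk* was at 8.60 on *Mmp13*-/- replicate 1 (others 8.71 to 8.72).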

How the results depend on the processing

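In comparisons of genotypes, and of their change with time, the count of members called stayed at 0 in every alternative that could be fitted. Between 7 d and 21 d (3 called in each genotype), 7 were called in each without the series term, and 7 in *Mmp13*-/- tissue with only the arrays compared, where the term could not be fitted. Leaving out 1 array gave 0 to 3 in *Mmp13*-/- tissue, with 0 without *Mmp13*-/- 14 d replicate 4, and 2 to 4 in WT tissue. With the replicate number as a block, 1 was called in *Mmp13*-/- tissue, *Mertk*, as *Acp5* (adjusted p = 0.0746) and *Atp6v0d2* (adjusted p = 0.0895) were lost, and the block moved no other count of members. Same-numbered arrays correlated at r = -0.16 to 0.50 at 7 d, 0.12 to 0.61 at 14 d and -0.13 to 0.01 at 21 d, so the numbers were not taken to pair the samples across days. At 14 d, where all 4 pairs were over 0.1, the block called 0 members between genotypes, as without it. Between 7 d and 14 d (1 called in *Mmp13*-/-, 2 in WT), only the arrays compared gave 0 in each, arrays centred on their medians gave 1 in WT, and leaving out 1 array gave 0 to 2 in each. Leaving out dim probe sets and a trended robust prior each gave 3 in WT tissue, with *Atp6v0d2* added. Without WT 14 d replicates 1 and 3, 2 were called in *Mmp13*-/- tissue. Between 14 d and 21 d (0 called), dropping the series term gave 2 in *Mmp13*-/- and 4 in WT tissue, and quantile normalization, leaving out dim probe sets and a trended robust prior gave 1 each in WT tissue, *Mertk*. Leaving out 1 array there gave 0. The cause of these shifts was not tested. No call changed direction in an alternative.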
